A study of Homo sapiens with 6 samples.

Results

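The 4 arrays described here compared VCaP cells carrying a hairpin against PRMT5, labelled PRMT5 shRNA 2, with VCaP cells carrying a control hairpin, labelled NTC. They were chosen by their titles, and they make up 4 of the 6 arrays of the series. The remaining 2 arrays came from a different PRMT5 hairpin, labelled PRMT5 shRNA 1, and are used to estimate the spread between replicates and for a comparison of the hairpins. VCaP, an established line of human prostate cancer cells, carries the TMPRSS2-ERG gene fusion. The cells of all groups, controls included, received doxycycline at 100 ng/ml for 3 days before total RNA was taken, so an effect of the drug itself is shared by the groups compared. There were 2 arrays per group (n = 2), each labelled as a replicate. Nothing in the labels tells if the replicates came from separate cultures or if a hairpin line was a pool or a clone. The p-values therefore measure the spread between these arrays, which may be technical, and a property of the cell line carrying 1 hairpin cannot be told apart from an effect of the hairpin.

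PRMT5 is the main enzyme that places symmetric dimethyl marks on arginines. It works in a complex with WDR77, also called MEP50, on histones, where its marks are mostly linked to gene silencing, and on the Sm proteins of the spliceosome, which are assembled into snRNPs after methylation. In prostate cancer cells with the TMPRSS2-ERG fusion, an androgen-driven promoter makes the ETS factor ERG, which binds many of the enhancers used by the androgen receptor.

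Transcripts were measured with microarray probe sets, each a set of short probes designed against a transcript or a group of similar ones, and the values were deposited as intensities in which each array has the same trimmed mean. The median intensity per array was between 14.8 and 16.4, and intensities near or below this carry little signal. A gene was represented by its brightest probe set, and 12413 genes were tested on the scale of log2(intensity + 16). A log2 difference is written with its standard error after ±. It is the mean of the PRMT5 shRNA 2 arrays minus the mean of the NTC arrays, and the added 16 shrinks it for dim genes. A gene was called higher or lower at a Benjamini-Hochberg adjusted p under 0.05 in limma's moderated test, and rose or fell is used only for such genes. A call is described as kept when it passed in each of the 6 fits that left out 1 array. The number of arrays limits the precision.

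The 2 NTC arrays correlated at 0.997 over all tested genes and the 2 PRMT5 shRNA 2 arrays at 0.996, against 0.981 to 0.983 between the groups. Of the 8 markers fixed for VCaP cells, 6 were measured, and KLK3, ERG, TMPRSS2, HOXB13, KRT8 and KRT18 were all above the array medians in the NTC arrays. The ratio of 3' to 5' probe sets, a measure of RNA integrity and labelling, was 1.29 ± 0.0531 (SD, n = 2) for GAPDH in the NTC arrays and 1.22 ± 0.0073 in the PRMT5 shRNA 2 arrays. For ACTB it was 4.73 ± 0.209 and 5.36 ± 0.511, with 4.58 and 4.88 in the NTC arrays and 5.72 and 5.0 in the PRMT5 shRNA 2 arrays. The part of this difference in the results was not tested.

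The targeted gene was reduced but not removed. PRMT5 (chromosome 14) had intensities of 809.8 and 880.5 in the NTC arrays and of 291.2 and 321.0 in the PRMT5 shRNA 2 arrays. Both PRMT5 shRNA 2 arrays lay far below both controls, at 36.2% of the control mean. The log2 difference was -1.42 ± 0.08 (adjusted p = 4.72e-07). Another 2 probe sets for the gene gave 36.3% and 33.3% of control. With PRMT5 shRNA 1 the same probe set stood at 15.9% of control, and the hairpins differed by 1.09 ± 0.08 (adjusted p = 8e-05), so PRMT5 shRNA 2 was the weaker of the hairpins on this transcript.

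The gene with the highest log2 difference was XK (chromosome X), a membrane protein that works with the lipid transfer protein VPS13A and is lost in McLeod syndrome. It rose from 58.9 and 54.1 in the NTC arrays to 891.5 and 859.6 in the PRMT5 shRNA 2 arrays, a 15.5-fold change in intensity and a log2 difference of 3.62 ± 0.08 (adjusted p = 9.82e-10). LAMA2 (chromosome 6), the laminin alpha chain of muscle basement membrane, was listed at 3.0 and 3.1 in the controls and at 132.9 and 167.8 in the PRMT5 shRNA 2 arrays. The controls lay below the array medians, so the gene went from no clear signal to a moderate one, and the size of its log2 difference depends on the added constant. The value was 3.12 ± 0.12 (adjusted p = 2.15e-08) with 16 added, 5.21 with 1 and 1.67 with 64. HDAC9 (chromosome 7), a class IIa histone deacetylase that acts with MEF2 transcription factors, had the lowest difference. It fell from 288.8 and 284.8 to 19.8 and 24.1, which is 7.65% of control (log2 difference -3.00 ± 0.10, adjusted p = 1.49e-08). CDKN1A (chromosome 6), which encodes the cyclin-dependent kinase inhibitor p21, rose from 459.5 and 412.3 to 1025.4 and 824.8, or 2.12-fold (1.05 ± 0.10, adjusted p = 1.91e-05). With PRMT5 shRNA 1 the same gene stood at 441.4 and 444.6, among the control values. CDKN1A was measured by a single probe set of the _s_at class.

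**Figure D1:**
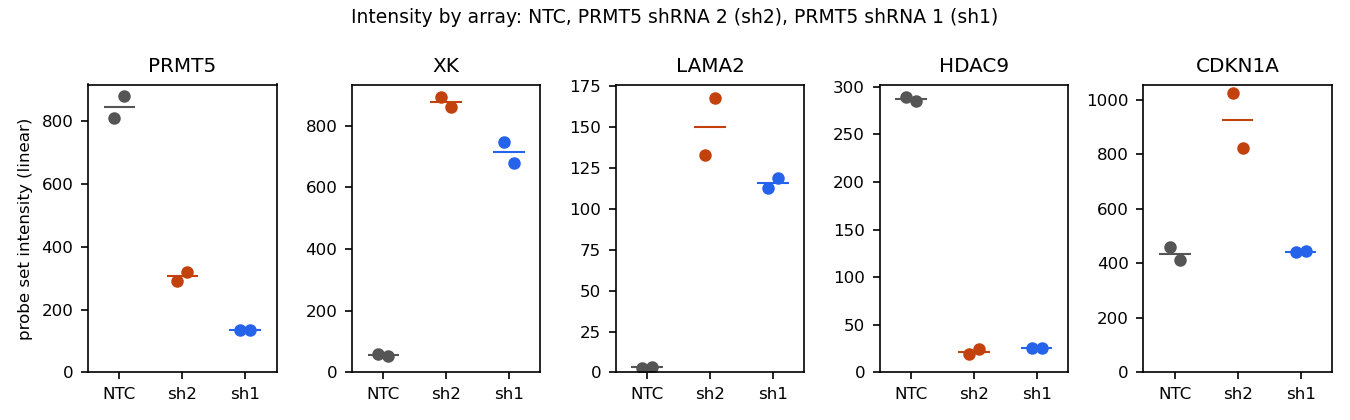
Intensity on a linear axis starting at 0 for PRMT5, XK, LAMA2, HDAC9 and CDKN1A, with 1 point per array and a bar at each group's mean, for NTC, PRMT5 shRNA 2 (sh2) and PRMT5 shRNA 1 (sh1). PRMT5 lies at 291.2 and 321.0 with sh2, between the controls and sh1, and CDKN1A is raised with sh2 while the sh1 arrays lie at 441.4 and 444.6, within the range of the controls.

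Across the transcriptome, 2661 of 12413 tested genes (21.4%) passed the test. Of these, 1620 rose (13.1% of all tested) and 1041 fell (8.39%). The split depends on the scaling: after quantile normalization 1417 rose and 1395 fell. Most called changes were small, with a median absolute log2 difference of 0.43 among called genes, and 235 genes were called with a difference of at least 2-fold, 165 higher and 70 lower. At least 4-fold, 22 genes were higher and 12 lower. The median over all tested genes was 0.01, so lists of genes are read below against that value and against the shares called. The count rests in part on the controls: it was 1561 without NTC replicate 1 and 1707 without NTC replicate 2. In all, 1220 genes kept their call in each of the 6 fits, 817 higher and 403 lower.

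**Figure D2:**
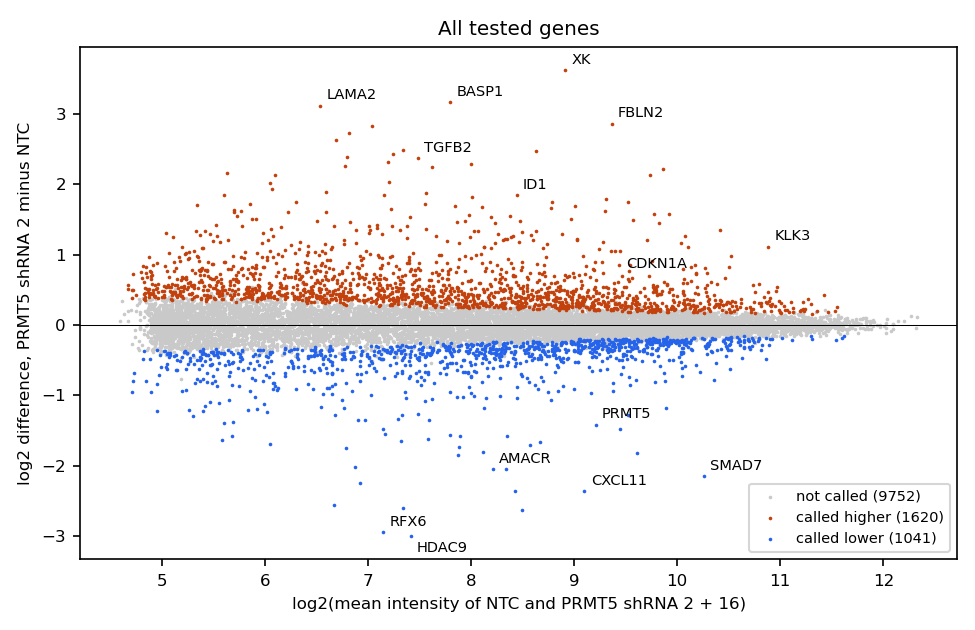
Each point is 1 of 12413 tested genes, with the log2 of the mean intensity plus 16 on the x axis and the log2 difference, PRMT5 shRNA 2 minus NTC, on the y axis. The 1620 genes called higher and 1041 called lower are coloured, most of them lie within 2-fold of control, and XK at 3.62 and HDAC9 at -3.00 mark the extremes.

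The 12 highest of the kept genes with a mean intensity of at least 100 held secreted and surface proteins, regulators of growth factor signalling and a prostate enzyme. BASP1, a membrane-associated protein of growing axons that also acts as a transcriptional corepressor, rose from 27.9 and 29.0 to 408.7 and 359.7 (3.17 ± 0.09, adjusted p = 3.6e-09). FBLN2, the matrix protein fibulin 2, rose from 141.9 and 144.4 to 1193.3 and 1089.9, or 7.97-fold (2.86 ± 0.08). TGM4, the prostate transglutaminase of seminal fluid, was at 18.8 and 13.9 in the controls, near the array medians, and at 201.7 and 225.9 with the hairpin (2.83 ± 0.11). None of these overlapped between the groups, as the rule required and as held for 59.8% of all tested genes, and XK, BASP1 and FBLN2 were clearly detected in both.

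VSTM2A, a secreted immunoglobulin-domain protein, went from 13.3 and 14.0 to 183.3 and 176.1 (2.72 ± 0.09). KRT80, an epithelial type II keratin, went from 14.8 and 10.7 to 171.4 and 151.6 (2.63 ± 0.11). For both, the control arrays were below the lowest array median of 14.8 or equal to it. SPRY4, a Sprouty protein that restrains receptor tyrosine kinase signalling, rose from 31.7 and 33.7 to 285.9 and 231.5 (2.49 ± 0.10). The long noncoding RNA SPRY4-IT1 (2.39 ± 0.13) lies within SPRY4, so its probe set and that of SPRY4 are not independent. SLC15A2, the peptide transporter PEPT2, rose from 111.8 and 98.3 to 638.7 and 670.1, or 6.23-fold (2.47 ± 0.08). RELN, the secreted glycoprotein reelin, rose from 33.3 and 26.7 to 172.5 and 307.0 (2.43 ± 0.20, adjusted p = 7.8e-06). Its PRMT5 shRNA 2 arrays differed from one another by more than those of the other genes of this group, though both stayed far above the controls. TGFB2, a TGF-beta ligand, rose from 44.9 and 39.0 to 271.2 and 296.7, or 6.77-fold (2.37 ± 0.09, adjusted p = 2.15e-08).

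The 12 lowest, after HDAC9, were led by a developmental transcription factor. RFX6, known for its role in pancreatic endocrine cells, fell from 245.3 and 223.7 to 12.4 and 21.4, at or near the array medians (-2.94 ± 0.14, adjusted p = 1.08e-07). SAMD5 fell from 596.2 and 609.5 to 85.2 and 83.1 (-2.63 ± 0.09). ART3, a member of the ADP-ribosyltransferase family, fell from 264.5 and 257.8 to 30.9 and 28.4 (-2.60 ± 0.10). The SAMD5 and ART3 arrays of a group lay close together and far from those of the other group. TCIM, a small protein linked to Wnt signalling, fell from 158.2 and 158.7 to 11 and 16.3 (-2.56 ± 0.12). CXCL11, a chemokine that attracts T cells through CXCR3, fell from 915.7 and 889.8 to 170.1 and 155.0, or 18.0% of control (-2.36 ± 0.08, adjusted p = 1.49e-08).

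Of the remaining genes of this group, 3 are best known from neurons. IL1RAPL1, a synapse-organizing receptor, fell from 550.3 and 566.7 to 88.2 and 104.3 (-2.36 ± 0.11). GRIA2, a subunit of AMPA glutamate receptors, fell from 496.6 and 510.1 to 96.1 and 124.2 (-2.05 ± 0.11). KCNG3, a modifier of voltage-gated potassium channels, fell from 172.1 and 172.0 to 31.4 and 29.0 (-2.03 ± 0.12). Each of the 3 was well above the array medians in both controls. ESRRG, an orphan nuclear receptor, fell from 177.8 and 189.1 to 27.8 and 24.6 (-2.24 ± 0.12). SMAD7, the inhibitory SMAD that limits TGF-beta signalling, fell from 1995.1 and 1967.4 to 436.7 and 433.3, or 22.0% of control (-2.15 ± 0.06, adjusted p = 3.6e-09). AMACR, the racemase of branched-chain fatty acids used as a tissue marker of prostate cancer, fell from 453.9 and 469.0 to 99.7 and 98.7, or 21.5% of control (-2.05 ± 0.08, adjusted p = 3.73e-08). For SMAD7 and AMACR the arrays within a group differed little.

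**Figure D3:**
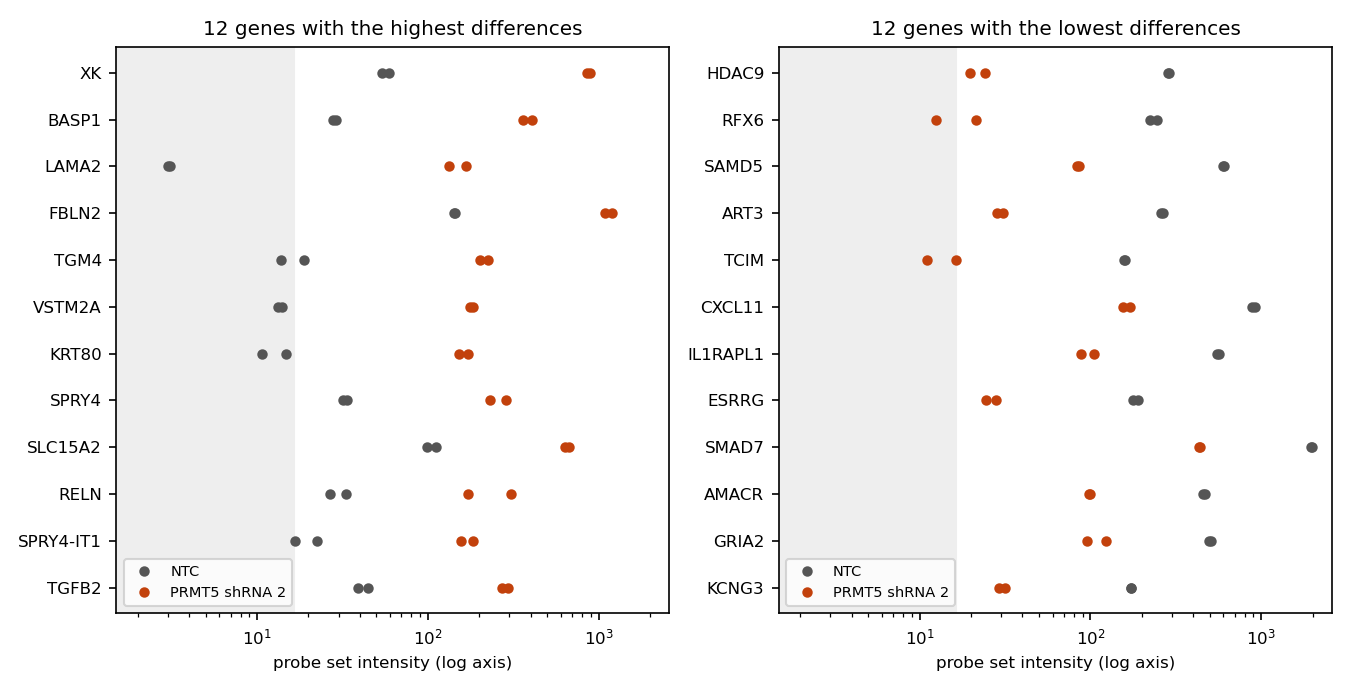
Intensity on a log axis for the 12 genes with the highest and the 12 with the lowest log2 difference under the rule for named genes, with 2 NTC points (grey) and 2 PRMT5 shRNA 2 points (orange) per gene. The groups do not overlap for any of these genes, which the rule required, and the shaded band marks intensities below 16.4, the highest array median, where LAMA2, VSTM2A and KRT80 lay in the controls.

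The list of TGF-beta, activin and BMP ligands with SMAD feedback genes held 18 tested genes, of which 11 rose (61.1%, against 13.1% of all genes) and 3 fell. Its median log2 difference was 0.40, against 0.01 for all genes. Among ligands, TGFB2 rose as given above, and INHBB, the beta B chain of activins, rose from 22.1 and 15.4 to 49.7 and 54.7 (0.98 ± 0.12). GDF11, an activin-like ligand, fell from 571.3 and 601.5 to 305.7 and 293.0 (-0.93 ± 0.07). BMP2 fell by 0.69, from 17.3 and 16.2 to 3.0 and 5.8, all close to or below the array medians. The ligands therefore did not move in 1 direction. Among intracellular members, the inhibitors of DNA binding, which are immediate BMP-SMAD targets, rose together. ID1 rose from 123.4 and 147.1 to 565.5 and 492.5, or 3.91-fold (1.85 ± 0.09, adjusted p = 2.05e-07). ID3 rose from 630.5 and 625.7 to 1568.0 and 1312.7 (1.17 ± 0.08), and ID2 rose by 0.53 ± 0.07. The inhibitory SMADs went in opposite directions: SMAD6, which acts mainly on BMP signals, rose from 70.7 and 71.8 to 239.7 and 306.1 (1.72 ± 0.11, adjusted p = 1.11e-06), whereas SMAD7 fell. BAMBI, a decoy receptor of the family, rose by 1.02 ± 0.14. Restricted to probe sets without the _x_at and _s_at suffixes, which mark probes shared between transcripts, 7 of 14 genes of this list rose and the median was 0.25. The filter on dim probe sets can admit a gene through the arrays in which it is higher. With no such filter 26 genes of the list were tested, 10 rose, 3 fell and the median was 0.12.

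Feedback regulators of the ERK pathway were represented by 16 tested Sprouty, SPRED and DUSP genes. Of these, 4 rose (25%, against 13.1% of all genes) and the other 12 did not pass. DUSP2, a phosphatase that inactivates ERK, rose from 36.9 and 46.9 to 209.6 and 231.2, or 5.26-fold (2.03 ± 0.11, adjusted p = 3.67e-07), beside SPRY4. PHLDA1 rose by 0.73 ± 0.10, while SPRY1 (0.18, adjusted p = 0.0543) and DUSP6 (0.24, adjusted p = 0.238), other commonly read feedback genes, did not pass, although SPRY1 did without PRMT5 shRNA 2 replicate 1 (0.22, adjusted p = 0.0497). The median of the list was 0.08, and 0.03 without PRMT5 shRNA 2 replicate 2. After quantile normalization, and without PRMT5 shRNA 2 replicate 2, 3 genes of the list were called lower, and 2 of 13 rose when probe sets with the _x_at and _s_at suffixes were left out. Immediate early genes are switched on within minutes of many stimuli. In this list 8 of 16 rose (50%, against 13.1% of all genes), with a median of 0.24. KLF4, a zinc finger factor, rose from 117.2 and 104.4 to 205.1 and 230.2 (0.88 ± 0.09). ZFP36, which speeds the decay of AU-rich mRNAs, rose by 0.73 ± 0.09 and EGR1 by 0.64 ± 0.09. The count was 5 without NTC replicate 2, without PRMT5 shRNA 2 replicate 1 or without PRMT5 shRNA 2 replicate 2, and 3 of 6 tested without those probe set classes.

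Of 34 tested genes of the hypoxia response and glycolysis, 20 rose (58.8%, against 13.1% of all genes). The other 14 did not pass, and the median of the list was 0.30. Without the _x_at and _s_at probe sets 20 were tested, of which 13 rose, with a median of 0.32. ADM, the vasodilator peptide adrenomedullin, rose from 124.8 and 138.5 to 366.4 and 347.1, or 2.71-fold (1.34 ± 0.08, adjusted p = 8.75e-07). PFKFB4, which sets the level of a glycolytic activator, rose from 208.9 and 207.3 to 518.9 and 535.4 (1.28 ± 0.07). ALDOC, an aldolase, rose from 163.9 and 158.6 to 351.4 and 381.1 (1.11 ± 0.08), and ANKRD37 rose by 1.08 ± 0.07. Both PRMT5 shRNA 2 arrays exceeded both controls for each of these. BHLHE40, a hypoxia-inducible repressor, rose by 0.65 ± 0.09. HIF1A itself (2378.8 and 2080.2 against 2370.2 and 2335.2), the glucose transporter SLC2A1 (0.05, adjusted p = 0.766) and LDHA (0.13, adjusted p = 0.0849) did not pass. The letters ACGTG or GCGTG, the core bound by hypoxia-inducible factors, were searched on both strands of the 250 bases before the RefSeq start. They occurred in 20 of the 30 list members with a sequence (66.7%), in 12 of 18 that rose and 8 of 12 that did not pass (66.7% of each), in 57.4% of the promoters of all tested genes and in 52.1% of those of all genes called higher.

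The list of ATF4 targets and unfolded protein response genes had 13 of 31 higher (41.9%, against 13.1% of all genes). The other 18 did not pass. Its median was 0.12. Without the _x_at and _s_at probe sets 5 of 19 rose. SLC7A11, the cystine importer that feeds glutathione synthesis, rose from 136.6 and 134.7 to 334.7 and 400.4 (1.33 ± 0.09, adjusted p = 2.1e-06). DDIT4, an inhibitor of mTORC1, rose from 940.1 and 999.6 to 2003.9 and 1866.3 (0.98 ± 0.07, adjusted p = 2.54e-06). Other members rose by less. ATF3, a stress-induced bZIP factor, rose from 12.3 and 17.0 to 31.0 and 41.2 (0.76 ± 0.13), DDIT3, also called CHOP, by 0.56 ± 0.09, and SLC3A2, the partner chain of SLC7A11, by 0.69 ± 0.11. ATF4 mRNA (0.03, adjusted p = 0.777), the chaperone HSPA5 (0.12, adjusted p = 0.121) and ASNS (0.10, adjusted p = 0.351), a classical ATF4 target, did not pass.

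ATF4 binds with C/EBP partners at composite elements with the letters TGATGNAAN. These letters were searched on both strands of the 250 bases before the start of 10174 tested genes with a RefSeq promoter sequence (GRCh38.p14). They were found in 4 of the 27 list members with a sequence (14.8%), in 2.35% of all genes called higher and in 1.45% of all genes tested. The matches in the list were ASNS, which did not pass, and ATF3, CHAC1 and HERPUD1, which rose and are shown because they are the called members that hold the letters. The match is in capitals, and where the capitals read as its reverse complement the element lies on the opposite strand. The windows are chr1:212565157-212565406 (+) for ATF3, chr15:40953221-40953470 (+) for CHAC1 and chr16:56931892-56932141 (+) for HERPUD1, with the match 191, 210 and 177 bases before the start.
ATF3: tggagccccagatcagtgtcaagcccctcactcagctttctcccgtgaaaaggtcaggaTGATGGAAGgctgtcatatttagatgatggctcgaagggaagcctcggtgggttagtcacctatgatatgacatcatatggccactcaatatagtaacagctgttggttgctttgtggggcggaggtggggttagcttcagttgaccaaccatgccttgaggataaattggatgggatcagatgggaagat
CHAC1: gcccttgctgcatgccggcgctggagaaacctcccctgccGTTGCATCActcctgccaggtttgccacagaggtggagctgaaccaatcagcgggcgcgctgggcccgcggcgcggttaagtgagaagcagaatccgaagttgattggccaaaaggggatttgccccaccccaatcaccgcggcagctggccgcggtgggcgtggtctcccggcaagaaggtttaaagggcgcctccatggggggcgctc
HERPUD1: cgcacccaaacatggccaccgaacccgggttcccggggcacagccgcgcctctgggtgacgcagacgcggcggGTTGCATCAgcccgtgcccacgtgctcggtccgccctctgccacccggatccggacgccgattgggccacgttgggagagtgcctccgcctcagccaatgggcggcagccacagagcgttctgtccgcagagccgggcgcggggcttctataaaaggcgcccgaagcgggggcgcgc
A match is a description of the letters, not a binding site or a cause. CHAC1, which degrades glutathione, rose from 15.9 and 12.3 to 26.7 and 28.6 (0.54 ± 0.12), near the array medians, and its call was lost without NTC replicate 2. HERPUD1, a factor of ER-associated degradation, rose from 736.0 and 755.5 to 1007.5 and 1003.1 (0.42 ± 0.06, adjusted p = 0.000381), and did not pass on its other probe set class (0.16, adjusted p = 0.401, without _x_at and _s_at probe sets).

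Amino acid and peptide transporters changed in both directions, with 9 of 25 higher (36.0%), 3 lower and a median of 0.02. Beside SLC15A2 and SLC7A11, the intestinal peptide transporter SLC15A1 rose by 1.01 ± 0.12. SLC7A6 fell by 0.50 ± 0.07 and SLC38A10 by 0.65 ± 0.11, the latter not with the mean over its probe sets (-0.16, adjusted p = 0.184). Without PRMT5 shRNA 2 replicate 2, and also with the mean over probe sets, 5 of the list were called lower. Among 17 aminoacyl-tRNA synthetases, 3 rose (17.6%) and 1 fell (5.88%), near the 13.1% and 8.39% of all genes. CARS1, the cysteine synthetase, kept its call (0.39 ± 0.08), and no other call of this list was kept.

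Cell cycle genes were examined beside CDKN1A. Of 13 CDK inhibitors and G1 cyclins, 2 rose (15.4%) and 1 fell (7.69%), near the 13.1% and 8.39% of all genes. Those that rose were CDKN1A, and CDKN1C, which encodes p57, from 56.2 and 46.1 to 89.0 and 92.8 (0.67 ± 0.11). The lower call was not kept in all 6 fits. Of 36 G1/S and DNA replication genes, 8 fell (22.2%, against 8.39% of all genes), with a median of -0.10. The count was 2 without NTC replicate 1 or NTC replicate 2, 5 without any 1 of the other arrays, and 4 with the replicate block. Those kept throughout were CDC25A, the phosphatase that activates CDK2, from 944.6 and 983.9 to 700.9 and 744.9 (-0.41 ± 0.07), and MCM10, a replication initiation factor (-0.32 ± 0.06). Among 34 G2/M and mitosis genes, 1 fell (2.94%), the phosphatase CDC25B (-0.33 ± 0.06), and the proliferation marker MKI67 was at 345.1 and 266.3 in the controls and at 287.3 and 295.5 with the hairpin. With the mean over probe sets, 5 of these genes were lower, and without PRMT5 shRNA 2 replicate 2 the counts were 2 lower and 1 higher.

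Ribosome biogenesis factors had 11 of 30 lower (36.7%), with a median of -0.20, but the calls were weak. They numbered 1 without NTC replicate 1, 6 without NTC replicate 2 and 7 without either PRMT5 shRNA 2 array; averaging the probe sets of a gene gave 19. LYAR, a nucleolar protein, kept its call, from 435.1 and 496.4 to 351.5 and 341.7 (-0.41 ± 0.08). NOP2, which methylates ribosomal RNA, went down by 0.40 ± 0.10, a call lost without NTC replicate 1 or PRMT5 shRNA 2 replicate 1. Of 24 homologous recombination and Fanconi genes, 6 fell (25%, against 8.39% of all genes). These calls were all lost without either NTC array, and 2 genes fell without either PRMT5 shRNA 2 array. In limma's test none of the 26 cytosolic ribosomal proteins passed, with 0 at an unadjusted p under 0.05, and none of the 34 respiratory chain subunits, with 1 at an unadjusted p under 0.05. With the mean over probe sets 2 ribosomal proteins and 1 respiratory chain subunit were lower. Of ribosomal proteins, 2 of 15 were lower without the _x_at and _s_at probe sets, and 1 was higher after quantile normalization. Their median was 0.05, but -0.02 without PRMT5 shRNA 2 replicate 1 and 0.12 without replicate 2.

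Androgen-induced genes were split. Of 29, 8 rose (27.6%, against 13.1% of all genes) and 4 fell (13.8%, against 8.39%). The median was 0.08 (0.13 without PRMT5 shRNA 2 replicate 2). KLK3, which encodes prostate-specific antigen, rose from 1186.4 and 1168.9 to 2674.3 and 2464.8, or 2.18-fold (1.11 ± 0.06, adjusted p = 2.05e-07). EAF2, an elongation factor partner, rose from 97.5 and 109.7 to 279.8 and 259.9 (1.26 ± 0.09), and PTGER4, a prostaglandin receptor, rose by 1.19 ± 0.08. STEAP4, a metalloreductase, rose by 0.86 ± 0.08. In contrast the neighbouring kallikrein KLK4 fell from 334.0 and 351.5 to 218.8 and 218.1 (-0.61 ± 0.08, adjusted p = 0.00024), and the transcription factor MAF fell from 107.5 and 120.1 to 49.9 and 60.0 (-0.87 ± 0.11). The best known targets did not all follow KLK3: KLK2 (0.13, adjusted p = 0.106), TMPRSS2 (-0.14, adjusted p = 0.263) and FKBP5 (-0.14, adjusted p = 0.0947) did not pass. KLK2 passed without PRMT5 shRNA 2 replicate 2 (0.21), FKBP5 after quantile normalization (-0.15) and TMPRSS2 with the mean over probe sets (-0.30). Without NTC replicate 2 or PRMT5 shRNA 2 replicate 1, 2 of the list were lower. Kallikreins are near-identical in parts, and the KLK3 and KLK4 probe sets carry the _x_at suffix for probes that can cross-hybridize.

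Genes reported as repressed by androgen were mostly lower: 5 of 9 fell (55.6%, against 8.39% of all genes) and 1 rose, with a median of -0.50. OPRK1, the kappa opioid receptor, fell from 193.5 and 190.4 to 60.6 and 56.4 (-1.48 ± 0.11, adjusted p = 3.17e-06). The UGT2B enzymes, which inactivate androgens by glucuronidation, fell together. UGT2B15 fell from 507.1 and 510.9 to 249.9 and 278.6 (-0.91 ± 0.08), UGT2B28 from 205.7 and 208.5 to 63.0 and 83.2 (-1.33 ± 0.12) and UGT2B17 from 123.1 and 111.6 to 52.4 and 50.2 (-0.99 ± 0.11). These are near-identical paralogs whose probes can share signal, and without the _x_at and _s_at probe sets 3 of 8 fell, the list median was -0.11 and UGT2B15 did not pass (-0.08, adjusted p = 0.836). BCHE, butyrylcholinesterase, fell by 0.50 ± 0.10, and CDH2, N-cadherin, rose from 12 and 4.9 to 27.6 and 35.1 (0.96 ± 0.15), near the array medians.

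ERG did not pass. Its brightest probe set was at 1366.9 and 1446.4 in the controls and at 1424.3 and 1354.7 with the hairpin (-0.02 ± 0.07, adjusted p = 0.887), and with PRMT5 shRNA 1 it was at 75.7% of control. Of 22 genes reported as ERG or ETS targets, 9 fell (40.9%, against 8.39% of all genes) and 4 rose (18.2%, against 13.1%). The median was -0.13 (-0.02 with no filter on dim probe sets, where 27 were tested). KCNH8, a potassium channel, fell from 412.3 and 417.3 to 110.3 and 104.8 (-1.80 ± 0.08, adjusted p = 1.16e-07), and KHDRBS3, an RNA-binding protein, fell from 252.0 and 271.4 to 90.0 and 94.8 (-1.36 ± 0.09). AMACR belongs to this list as well. F3, tissue factor, fell by 0.91 ± 0.07. GHR, the growth hormone receptor, rose from 300.1 and 298.4 to 732.0 and 692.9 (1.21 ± 0.07, adjusted p = 3.61e-07), and CXCR4, the receptor of CXCL12, rose from 43.9 and 36.2 to 94.5 and 103.5 (1.04 ± 0.12). Without the _x_at and _s_at probe sets, 2 of 15 rose and 7 fell.

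**Figure D4:**
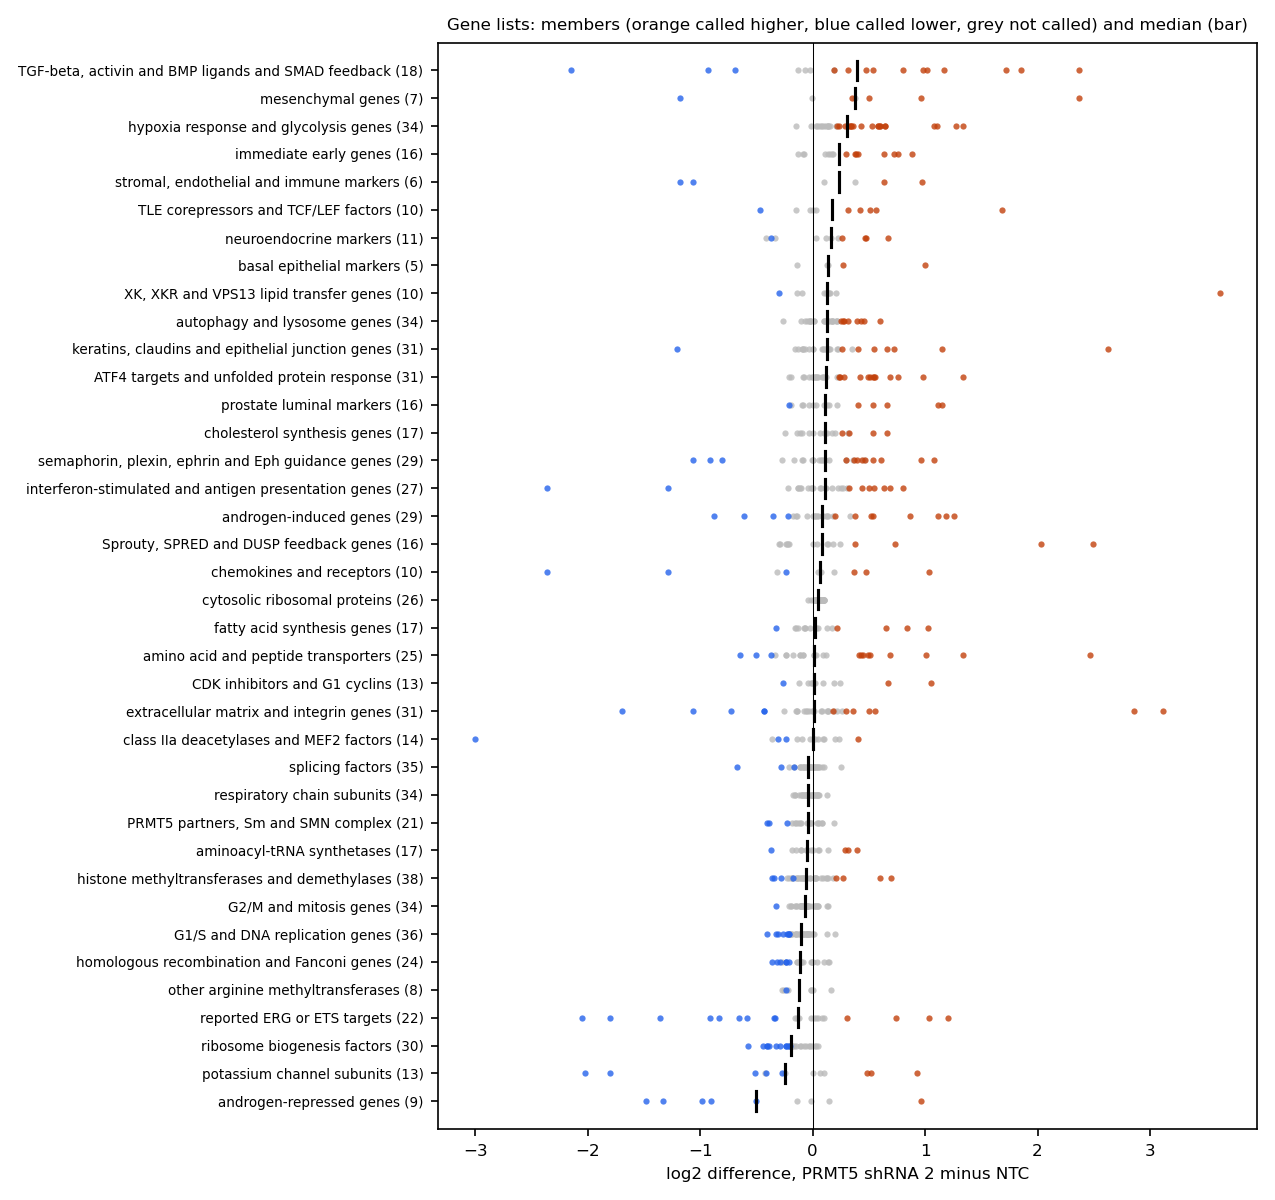
Log2 difference, PRMT5 shRNA 2 minus NTC, of each tested member (1 point per gene, orange called higher, blue called lower, grey not called) of the gene lists, with the number tested in brackets and the list median as a black bar, ordered by median. Medians run from 0.40 for the TGF-beta, activin and BMP list to -0.50 for the androgen-repressed genes (0.25 and -0.11 without the _x_at and _s_at probe sets), against 0.01 for all tested genes. With no filter on dim probe sets the medians of these lists were 0.12 and -0.50.

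Markers of prostate epithelial states were examined next. Among 16 luminal markers 5 rose (31.2%) and 1 fell (6.25%), against 13.1% and 8.39% of all genes. KRT19 rose from 228.9 and 267.5 to 639.3 and 509.1 (1.15 ± 0.10) and KRT8 from 228.9 and 222.2 to 382.4 and 348.4 (0.66 ± 0.08), while KRT18 (0.22, adjusted p = 0.0741) and the lineage factor HOXB13 (-0.09, adjusted p = 0.43) did not pass. The single lower call was lost without NTC replicate 1, NTC replicate 2 or PRMT5 shRNA 2 replicate 2, and without the _x_at and _s_at probe sets 3 of 9 rose. KRT18 passed without PRMT5 shRNA 2 replicate 2 (0.35). Of the basal cytokeratins, KRT5 and KRT15 did not exceed 5.9 on any of the 4 arrays, whereas KRT14 was between 37.2 and 52.5, above the array medians. The sum of the 10 measured basal markers was 3786.9 and 3801.3 in the controls and 3987 and 3957.8 with the hairpin. The kept call among them was EGFR, the epidermal growth factor receptor, which rose from 119.9 and 125.8 to 243.8 and 280.6 (1.00 ± 0.09, adjusted p = 2.21e-05). The other call, CD44, was lost in each of the 6 fits.

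Neuroendocrine markers had 4 of 11 tested members higher (36.4%) and 1 lower (9.09%), against 13.1% and 8.39% of all genes. SCGN, the calcium sensor secretagogin, rose from 347.2 and 374.5 to 587.5 and 582.6 (0.67 ± 0.07), CHGB, a granin of secretory granules, by 0.48 ± 0.10 and UCHL1 by 0.47 ± 0.08, though not without the _x_at and _s_at probe sets (0.21, adjusted p = 0.202). INSM1, a neuroendocrine transcription factor, fell by 0.37 ± 0.06. NCAM1, with means of 68.6 in the controls and 50.85 with the hairpin, and SCG2, with 27.2 and 16.55, were also lower but did not pass. CHGA and SYP, the most used markers, were at means of 57.05 and 244.0 in the controls against 69.5 and 267.5. The summed level of the 13 measured markers was 3781.4 and 3864.3 in the controls and 4415.7 and 4306.7 with the hairpin. After quantile normalization 3 of the list were lower, and 2 without PRMT5 shRNA 2 replicate 2.

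Markers of stromal, endothelial and immune cells were mostly near the lower end of the arrays. Of 17 measured, 10 lay below 14.8 on average, and PTPRC, CD3D, VWF, DCN and CDH5 did not exceed 6.1 on any of the 4 arrays. The summed level was 815.8 and 767.2 in the controls and 931.6 and 1012.3 with the hairpin, and its part in the results was not tested. Most of this sum was LUM, with means of 448.4 in the controls and 704.4 with the hairpin. LUM rose by more than the sum did, so the other markers together were lower. Of the 6 that were tested, LUM, the proteoglycan lumican, rose from 468.5 and 428.3 to 666.6 and 742.2 (0.63 ± 0.08) and LYZ, lysozyme, rose by 0.97 ± 0.11, whereas ACTA2, smooth muscle actin, fell from 129.2 and 140.7 to 52.1 and 49.0 (-1.18 ± 0.10) and FBN1, fibrillin, fell by 1.07 ± 0.11. In bulk RNA, fewer cells of a type and less RNA per cell cannot be told apart.

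Among 31 extracellular matrix and integrin genes, 7 rose (22.6%) and 5 fell (16.1%), against 13.1% and 8.39% of all genes, with a median of 0.01. LAMA2 and FBLN2 led those that rose. TNC, the adhesion-modulating protein tenascin C, fell from 90.0 and 80.7 to 13.4 and 17.3 (-1.69 ± 0.11, adjusted p = 1.81e-06) and ITGA2, a collagen-binding integrin, fell by 0.73 ± 0.13. The number higher was 3 without NTC replicate 1, NTC replicate 2 or PRMT5 shRNA 2 replicate 1, and 4 of 20 without the _x_at and _s_at probe sets. Of 31 keratin, claudin and junction genes 7 rose (22.6%) and 1 fell (3.23%). JUP, plakoglobin, rose from 199.5 and 239.2 to 367.0 and 376.4 (0.73 ± 0.09), and the tight junction protein CLDN1 fell from 60.3 and 66.7 to 15.9 and 21.1 (-1.21 ± 0.12). With the mean over probe sets 3 of this list fell.

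Guidance genes of the semaphorin, plexin, ephrin and Eph families changed in both directions, with 9 of 29 higher (31%) and 3 lower (10.3%). Of all genes 13.1% were higher and 8.39% lower. EPHB6, a kinase-dead Eph receptor, rose from 31.3 and 40.4 to 93.1 and 92.6 (1.08 ± 0.11), and SEMA3F, a secreted semaphorin, rose from 269.0 and 274.2 to 547.3 and 541.8 (0.96 ± 0.08). ROBO1, the SLIT receptor, fell by 1.07 ± 0.10, EPHA4 by 0.91 ± 0.11 and NRP1, a co-receptor of class 3 semaphorins, by 0.81 ± 0.09. The number higher was 5 without PRMT5 shRNA 2 replicate 2. Of 13 potassium channel subunits, 3 rose (23.1%) and 5 fell (38.5%), with a median of -0.24. KCND3 rose from 51.0 and 50.4 to 120.2 and 101.9 (0.93 ± 0.11), opposite to KCNG3 and KCNH8. The number lower was 2 without NTC replicate 2 and 3 without PRMT5 shRNA 2 replicate 1, and 1 of 11 rose without the _x_at and _s_at probe sets. The median was -0.16 without NTC replicate 1 and -0.10 without PRMT5 shRNA 2 replicate 1. With no filter on dim probe sets 25 subunits were tested, 3 rose, 5 fell and the median was 0.0025.

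The CXCR3 ligands stood apart from other interferon-stimulated genes. CXCL10 fell with CXCL11, from 128.7 and 130.3 to 40.4 and 47.4 (-1.28 ± 0.10, adjusted p = 7.56e-06). Of the 27 genes of the interferon and antigen presentation list, 7 rose (25.9%, against 13.1% of all genes) and 2 fell (7.41%, against 8.39%). Among those that rose were the immunoproteasome subunit PSMB9 (0.81 ± 0.14), the class I genes HLA-B, from 139.6 and 129.7 to 212.9 and 223.6 (0.64 ± 0.09), and HLA-C (0.44 ± 0.08), the peptide transporter TAP1 (0.54 ± 0.10) and IFI44 (0.68 ± 0.10). ISG15, a widely used marker of interferon signalling, was at 92.4 and 92.5 against 114.6 and 98.4 (adjusted p = 0.245). The number higher was 3 of 18 without the _x_at and _s_at probe sets, where IFI44 did not pass (0.36, adjusted p = 0.0839), and class I genes are near-identical in parts.

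Of 10 TLE corepressor and TCF/LEF genes, 5 rose (50%, against 13.1% of all genes) and 1 fell (10%, against 8.39%). TLE1, a Groucho-family corepressor, rose from 108.0 and 121.7 to 369.4 and 440.8 (1.68 ± 0.10, adjusted p = 6.14e-07), AXIN2, a Wnt feedback gene, rose by 0.56 ± 0.11, and ZNRF3, which removes Wnt receptors, fell by 0.47 ± 0.09. The number higher was 2 without NTC replicate 2 and 3 without either PRMT5 shRNA 2 array. Apart from HDAC9, 1 of the 14 class IIa deacetylase and MEF2 list genes rose and 2 fell, none kept in all 6 fits, and HDAC4, another class IIa member, was at 793.5 and 800.8 against 682.7 and 662.5 (-0.24 ± 0.06), a call lost without NTC replicate 1, NTC replicate 2 or PRMT5 shRNA 2 replicate 2. Without NTC replicate 1 HDAC9 was the single lower call. Of 10 XK, XKR and VPS13 lipid transfer genes, XK rose and ATG2B fell by 0.30 ± 0.07, and the other 8 did not pass. The share called in this list, 20%, was near the 21.4% of all genes. The ATG2B call was lost without NTC replicate 2.

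Autophagy and lysosome genes had 8 of 34 higher (23.5%), and the other 26 did not pass. GABARAPL1, an Atg8-family protein, rose from 89.6 and 89.0 to 124.5 and 165.6 (0.60 ± 0.12) and the cargo receptor SQSTM1 from 208.2 and 219.0 to 292.2 and 295.0 (0.43 ± 0.08). SQSTM1 depended on the probe set, at -0.21 (adjusted p = 0.287) without the _x_at and _s_at probe sets and at 0.07 (adjusted p = 0.578) as the mean over probe sets. The count was 2 without NTC replicate 1 and 4 without NTC replicate 2 or PRMT5 shRNA 2 replicate 1, and 4 of 22 rose without the _x_at and _s_at probe sets. In sterol synthesis 4 of 17 genes rose (23.5%, against 13.1% of all genes). Among them were SC5D (0.66 ± 0.07), TM7SF2 (0.53 ± 0.08) and MSMO1 (0.32 ± 0.05), all enzymes of the late pathway. Without the _x_at and _s_at probe sets 2 of 13 rose, and SC5D did not pass (0.30, adjusted p = 0.0736).

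The machinery around PRMT5 itself was examined at the mRNA level. Of 21 partners, Sm proteins and SMN complex members, 3 fell (14.3%, against 8.39% of all genes): LSM11, of the histone pre-mRNA processing U7 particle (-0.41 ± 0.09), GEMIN5, which recognizes snRNAs (-0.39 ± 0.09), and SNRPF, an Sm protein (-0.23 ± 0.06). All 3 calls were lost without NTC replicate 1, and that of SNRPF also without NTC replicate 2 or PRMT5 shRNA 2 replicate 1. WDR77, the obligate partner of PRMT5, was at 1216.4 and 1241.6 against 1241.9 and 1167.6 (-0.03, adjusted p = 0.766). Of 8 other arginine methyltransferases 1 fell (12.5%), PRMT1, by 0.23 ± 0.06, a call lost without NTC replicate 1 or NTC replicate 2, and 3 fell without PRMT5 shRNA 2 replicate 2. Of 35 splicing factors 3 fell (8.57%, near the share of all genes), and SRSF4, an SR protein, kept its call: it fell from 291.5 and 281.3 to 173.6 and 173.4, or 60.6% of control (-0.67 ± 0.08, adjusted p = 0.000103). Its other 4 probe sets had the same sign. The brightest of these barely differed, at 267.2 and 263.3 in the controls and 238.3 and 281.2 with the hairpin (-0.03). The list count was 1 without NTC replicate 2 or PRMT5 shRNA 2 replicate 1 and 8 after averaging probe sets. The arrays measure total signal per probe set, not splicing.

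The same arrays were then compared directly with the PRMT5 shRNA 1 arrays. The contrasts below share the PRMT5 shRNA 2 arrays with those above, so a chance deviation of those arrays enters both. The ACTB 3' to 5' ratio was 3.49 and 3.88 in the PRMT5 shRNA 1 arrays and 5.72 and 5.0 in the PRMT5 shRNA 2 arrays. For GAPDH the mean ratio was 1.22 with both hairpins. The part of the ACTB difference in this comparison was not tested. Of 12413 genes 3192 differed between the hairpins (25.7%), with 2276 higher with PRMT5 shRNA 2 (18.3%) and 916 lower (7.38%). After quantile normalization the split was 1345 and 1275. The differences were small, with 18 genes at 2-fold or more. The count was 1333 without PRMT5 shRNA 1 replicate 2, 1726 without PRMT5 shRNA 1 replicate 1 and 2017 without PRMT5 shRNA 2 replicate 2. Of the 1620 genes that rose against control, 425 were also higher than with PRMT5 shRNA 1, 132 were lower than with it, and for 1063 the difference was not called. Of the 1041 that fell, 144 were further lower, 195 were higher than with PRMT5 shRNA 1, and for 702 the difference was not called.

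Several of the changes named above were smaller with PRMT5 shRNA 2, the hairpin that left more PRMT5 mRNA, and the examples here were chosen after their values were seen. TGFB2 stood at 606.6 and 586.0 with PRMT5 shRNA 1, so that PRMT5 shRNA 2 was lower by a log2 difference of -1.03 ± 0.09 (adjusted p = 0.000147). For CXCL11, with 84.7 and 82.2, it was 0.84 ± 0.08 higher (adjusted p = 0.000228). EAF2 was lower by -0.88 ± 0.09 and ART3 higher by 0.76 ± 0.10. For other large changes the difference between hairpins did not pass: HDAC9 differed by -0.14 ± 0.10 (adjusted p = 0.341), KRT80 by 0.05 ± 0.11 (adjusted p = 0.774) and KLK3 by -0.03 ± 0.06 (adjusted p = 0.703). Others moved further with PRMT5 shRNA 2. Over all genes called against control, this held for 425 of the 1620 that rose and 144 of the 1041 that fell, against 132 and 195 that moved less. Of all tested genes 18.3% were higher with PRMT5 shRNA 2 and 7.38% lower, a split that was near even after quantile normalization. These counts were made on the scaling as deposited and are not read as a result about the called genes. AMACR was lower by -0.65 ± 0.08 (adjusted p = 0.000892) and SMAD7 by -0.26 ± 0.06 (adjusted p = 0.0104). FBLN2 was higher by 0.45 ± 0.08 (adjusted p = 0.00324), ALDOC by 0.47 ± 0.08 (adjusted p = 0.00297) and XK by 0.29 ± 0.08 (adjusted p = 0.0219). The XK call was lost without PRMT5 shRNA 1 replicate 2 (0.22, adjusted p = 0.175), PRMT5 shRNA 2 replicate 1 (0.26, adjusted p = 0.0766) or PRMT5 shRNA 2 replicate 2 (0.32, adjusted p = 0.0528).

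The genes that moved with PRMT5 shRNA 2 and moved further than with PRMT5 shRNA 1 were ranked by the second difference. In the higher direction, CDKN1A was among the first 8, with a difference between hairpins of 1.03 ± 0.10 (adjusted p = 0.000209). ACOX2, a peroxisomal oxidase of bile acid intermediates, was at 80.6 and 78.2 in the controls, 131.6 and 151.7 with PRMT5 shRNA 2 and 57.6 and 61.1 with PRMT5 shRNA 1, a difference between hairpins of 1.06 ± 0.10 (adjusted p = 0.000228). GALNT10, which starts mucin-type O-glycans, was at 127.8 and 128.7, at 189.8 and 187.1, and at 74.5 and 91.0, so it rose with PRMT5 shRNA 2 and fell with PRMT5 shRNA 1. MCAM, the adhesion molecule CD146, showed the same opposition, with 156.3 and 167.0 in the controls, 250.9 and 218.5 with PRMT5 shRNA 2 and 115.7 and 108.3 with PRMT5 shRNA 1 (difference 0.97 ± 0.09). Against control, the GALNT10 call was lost with the mean over probe sets (0.25, adjusted p = 0.083) and that of MCAM without the _x_at and _s_at probe sets (0.28, adjusted p = 0.083). TSPAN7, a tetraspanin, rose from 58.1 and 51.5 to 166.4 and 174.9 and was at 80.2 and 77.0 with PRMT5 shRNA 1 (difference 0.98 ± 0.10). The kinase SGK2 (difference 0.81 ± 0.10), the synaptic cadherin CLSTN2 (0.80 ± 0.10) and the beta-tubulin TUBB2B (0.99 ± 0.15) completed the group. TUBB2B is one of several near-identical tubulins, and its probe set carries the _x_at suffix.

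In the lower direction the first was BMS1P20, a pseudogene, at 609.4 and 582.0 in the controls, 345.3 and 296.6 with PRMT5 shRNA 2 and 629.1 and 779.6 with PRMT5 shRNA 1 (difference -1.09 ± 0.10, adjusted p = 0.000209). NOTCH2NLA, a partial copy of NOTCH2, was at 755.2 and 698.8, at 521.8 and 523.2, and at 977.7 and 1064.5, and so fell with PRMT5 shRNA 2 and rose with PRMT5 shRNA 1 (difference -0.94 ± 0.07, adjusted p = 8e-05). The other BMS1P20 probe set differed by -0.04 between the hairpins. Both genes have near-identical copies in the genome and are uncertain for that reason. SRSF4 was at 317.4 and 337.6 with PRMT5 shRNA 1, where it did not pass (0.18, adjusted p = 0.0816), and the hairpins differed by -0.86 ± 0.08 (adjusted p = 0.000173). Of its other 4 probe sets 3 were lower with PRMT5 shRNA 2 than in both other groups, and the remaining one was at 267.2 and 263.3 in the controls, 238.3 and 281.2 with PRMT5 shRNA 2 and 229.6 and 203.2 with PRMT5 shRNA 1. CBX5, heterochromatin protein HP1 alpha, fell from 893.7 and 904.3 to 728.8 and 659.4 and was at 1043.8 and 1210.4 with PRMT5 shRNA 1 (difference -0.68 ± 0.08). Its other 4 probe sets were divided: 3 were lower than control and 1 higher, and between the hairpins 2 had the same sign as the first and 2 the opposite sign. SHH, the hedgehog ligand, fell from 830.1 and 873.1 to 555.3 and 486.8 and stayed at 834.5 and 850.9 with PRMT5 shRNA 1 (difference -0.68 ± 0.07). NAV3, a microtubule-binding protein (difference -0.74 ± 0.10), AMACR (-0.65 ± 0.08, with the opposite sign on 1 of its other 2 probe sets) and ZNF703, a transcriptional corepressor (-0.63 ± 0.11), were the others. Of genes called in opposite directions by the hairpins, 23 were higher and 10 lower with PRMT5 shRNA 2, and GALNT10, MCAM and NOTCH2NLA kept all 3 calls in each of the 6 fits.

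**Figure D5:**
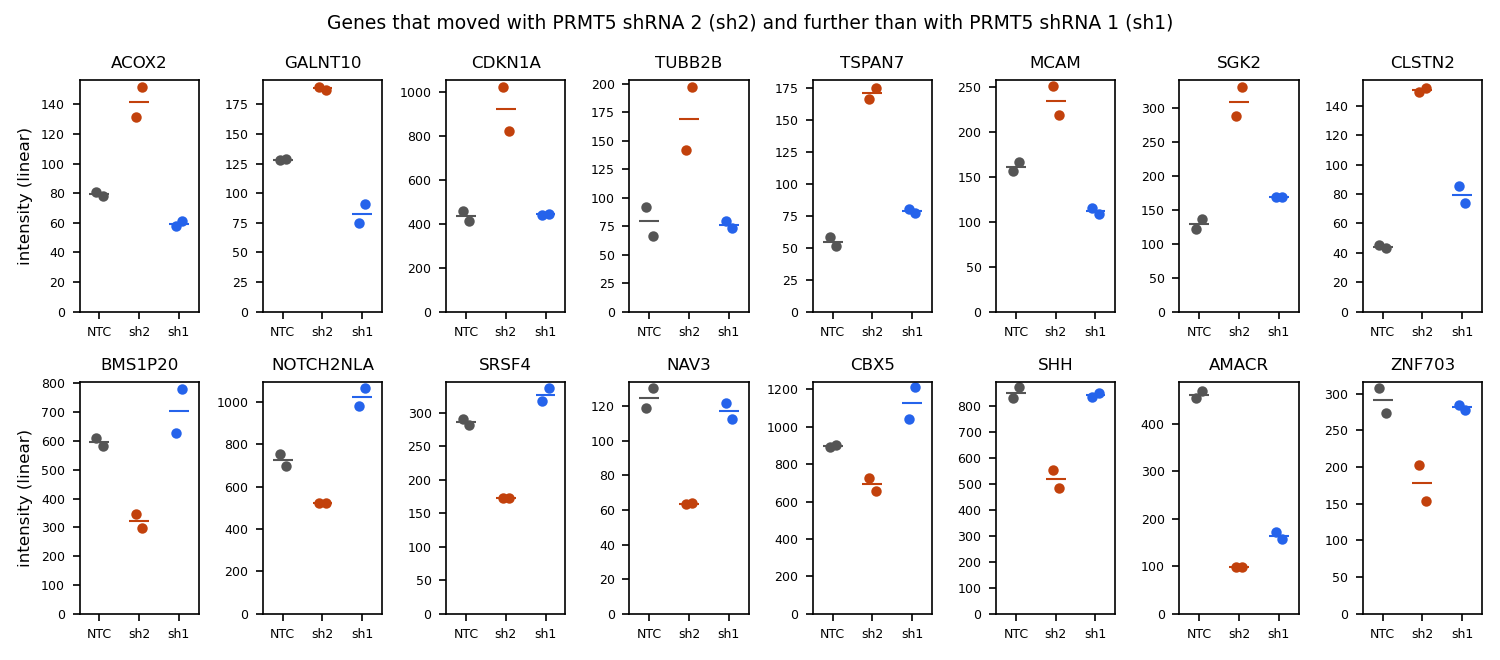
Intensity on linear axes starting at 0 for the 8 genes that rose (top row) and the 8 that fell (bottom row) with PRMT5 shRNA 2 (sh2) against NTC with the largest further difference from PRMT5 shRNA 1 (sh1), with 1 point per array and bars at the group means. The sh2 arrays lie outside the range of both other groups in every panel, which the selection favoured, and AMACR is the panel in which sh1, at 172.3 and 156.7, also lay far below the controls.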

How the data were processed

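Total RNA was amplified with a NuGen Ovation kit, per the labels' protocols, and measured on arrays of 54675 probe sets. The authors deposited linear MAS5 intensities, per the submitters' processing notes, with a trimmed mean (2% off each end) near 150.01 on every array. Scanner files were not used here, and no count of probe replicates or depth applies. Control probe sets (62) were left out; 41091 probe sets had 1 symbol in the platform annotation, 1801 had several and 11721 had none listed, and 41037 of the first matched RefSeq by Entrez identifier. Probe sets were kept where the intensity reached the array's median in at least 2 of 6 arrays, and the brightest kept one represented a gene. Values were tested as log2(intensity + 16) with the R package limma 3.58.1 (R 4.3.3), by linear models, contrasts and empirical Bayes moderation with a trend in intensity, on all 6 arrays, with 3 residual degrees of freedom and Benjamini-Hochberg adjustment, two-sided. The model was tested on simulated data. The members and the gene lists were chosen with earlier results of these data known, so no list is independent evidence of its direction.

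Genes were named by rule: the 12 highest and 12 lowest differences among calls kept in all 6 fits that left out 1 array, with groups that did not overlap and a mean of at least 100 in the higher group; the markers PRMT5, XK, LAMA2, HDAC9 and CDKN1A; from a described list up to 5 kept members, members against its direction and up to 3 well-known ones; and the 8 genes each way that moved furthest beyond PRMT5 shRNA 1. Replicate numbers were not taken as pairs, since same-numbered arrays of NTC and PRMT5 shRNA 2 deviated at r = -0.18.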

Additional observations from a re-analysis of the deposited data

Results flagged for a closer look

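Genes that moved with PRMT5 shRNA 2 against NTC, and further than with PRMT5 shRNA 1, were ranked by the difference between hairpins. That difference was tested with limma on all 6 arrays. Under the rule for named genes 76 were higher and 25 lower, and the 8 furthest each way are given here. Higher with PRMT5 shRNA 2 than with PRMT5 shRNA 1 were ACOX2 by a log2 difference of 1.06, GALNT10 by 1.05, CDKN1A by 1.03, TUBB2B by 0.99, TSPAN7 by 0.98, MCAM by 0.97, SGK2 by 0.81 and CLSTN2 by 0.80. Lower were BMS1P20 at -1.09, NOTCH2NLA at -0.94, SRSF4 at -0.86, NAV3 at -0.74, CBX5 at -0.68, SHH at -0.68, AMACR at -0.65 and ZNF703 at -0.63. PRMT5 itself was at 36.2% of control with PRMT5 shRNA 2 and at 15.9% with PRMT5 shRNA 1. The groups differ in the hairpin, in the remaining PRMT5 level, in the cell line that carries the hairpin and in the ACTB 3' to 5' ratio. These cannot be told apart with these arrays.

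Probe sets with no gene symbol or with several were outside the comparisons of named genes. Of 4724 such probe sets that passed the filter, 807 differed between PRMT5 shRNA 2 and NTC (17.1%), 303 higher and 504 lower, and 27 of the higher and 14 of the lower ones differed at least 2-fold. None of them is named here.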

How the results depend on the processing

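PRMT5 was called lower under every alternative run, with a log2 difference between -1.50 and -1.30. The count of genes called against NTC ranged from 1561 to 2443 when 1 array was left out, from a main value of 2661, and from 2155 to 3055 under the other planned settings. With the replicate number as a block the fit gave 2435 genes, 235 of them at least 2-fold, 2829 between the hairpins and -1.42 for PRMT5; same-numbered arrays deviated at r = -0.18 (NTC and PRMT5 shRNA 2), -0.09 (NTC and PRMT5 shRNA 1) and -0.0045 (between hairpins), so the numbers were not taken as pairs. A crossed block over the 4 arrays, added after seeing the data, gave 3576. Genes called at least 2-fold numbered 427 with a pseudocount of 1 and 113 with 64, since the constant shrinks dim genes, and 235 to 248 with 1 array left out. Between the hairpins the count was 1333 to 2808 with 1 array left out. Of 142 called genes named in the text, 135 kept their call without NTC replicate 1, 136 without NTC replicate 2, and 104 of 111 without the _x_at and _s_at probe sets, where SQSTM1 turned to -0.21. Among genes that did not pass, the sign turned with 1 array left out for ASNS (-0.0019 to 0.20), ATF4 (-0.087 to 0.16), ERG (-0.058 to 0.023), HIF1A (-0.016 to 0.18), HOXB13 (-0.20 to 0.012), MKI67 (-0.23 to 0.12), SLC2A1 (-0.016 to 0.12) and WDR77 (-0.073 to 0.015), and with the mean over probe sets for HOXB13 (0.036) and WDR77 (0.040). Signal near the array medians, between 14.8 and 16.4, limits the size of changes from or to silence.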

Other observations

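Long noncoding RNAs were also among the genes that changed in the PRMT5 shRNA 2 arrays. Of 592 tested, 63 were called higher and 56 lower (20.1%), against 21.6% of 11583 protein-coding genes. MIOS-DT, a divergent transcript at the MIOS gene, rose from 239.2 and 219.0 in the NTC arrays to 756.1 and 786.6 (1.68 ± 0.07, adjusted p = 4.22e-08 in limma's test). LINC00662 rose from 188.0 and 190.2 to 461.6 and 539.4 (1.33 ± 0.08), and ARLNC1, known as an androgen receptor regulated RNA, from 23.8 and 18.6 to 85.3 and 74.2 (1.37 ± 0.11). MIR210HG, the host transcript of the hypoxia-induced miR-210, rose from 25.9 and 28.2 to 76.2 and 70.5 (1.05 ± 0.10). Each kept its call in the 6 fits that left out 1 array. These RNAs were chosen after their values were seen.

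Some of the largest changes lay in adjacent genes. Among 12372 pairs of tested genes next to each other in the RefSeq order, 14 had both members called with a difference of at least 2-fold, and in 11 of these both moved the same way. The pairs that moved opposite ways were TUNAR (-1.17) with C14orf132 (1.57), PRKCA (-1.66) with CACNG4 (1.17) and UGT2B4 (-1.19) with ODAM (1.25). The pairs held 25 of the 235 such genes. Of these 235, 165 were higher and 70 lower, so many pairs would share a direction whatever their order. The number of pairs to be found in a random order was not worked out. On chromosome 4, ART3 (-2.60), CXCL10 (-1.28) and CXCL11 (-2.36) fell side by side, as did PDGFC (-1.70), GLRB (-1.75) and GRIA2 (-2.05). On chromosome 3, EAF2 (1.26) and SLC15A2 (2.47) rose together, and on chromosome 11 the secretoglobins SCGB2A1 (1.22) and SCGB1D2 (1.55). Neighbours can share probes or read-through transcripts, which was not tested, and SPRY4 with SPRY4-IT1 overlap.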
